A study of Mus musculus with 6 samples.

Results

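The 9 genes described here are the immediate early transcription factor genes Egr1, Egr2, Fos, Fosb, Jun, Junb and Atf3, with the rapidly induced genes Ier2 and Dusp1, in mouse bone marrow cells in which Rad21, which encodes part of the cohesin ring, was knocked down. They were taken by name, from a list chosen with earlier results of these data known. All 9 had a probe set on the array, 11 in all, since Egr2 and Jun each had 2. They are 9 of 12393 genes measured. The 6 Affymetrix arrays fell into 3 groups of 2, titled Empty Vector, Rad21 shRNA1 and Rad21 shRNA2. The mice were C57/BL6 and 6 to 8 weeks old. Their marrow cells were depleted of lineage-positive cells, exposed to lentivirus for 24 h, selected overnight with puromycin at 1 µg/mL, sorted for live cells and grown for 7 days in methylcellulose with cytokines that the labels do not name. The control virus is labelled as an empty vector, and the labels give no non-targeting shRNA, no promoter for the shRNAs and no statement that replicates came from separate animals or cultures, so the p-values rest on a spread between arrays that may be technical.

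Immediate early genes are switched on within minutes of a signal from growth factors, cytokines or stress, without new protein synthesis. Kinases of the RAS and MAP kinase cascade activate SRF, its ETS-family partners and CREB on their promoters, and the products switch on later genes. EGR proteins are zinc-finger factors held in check by the NAB co-repressors, while FOS proteins join JUN or ATF proteins to form the dimers called AP-1. In mouse myeloid progenitors, Egr1, Egr2 and Nab2 are known to repress neutrophil genes as cells become macrophages, opposite to Gfi1.

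The promoters of 5 of the genes are shown because they carry the letters through which CREB, ATF and SRF are known to act on immediate early genes. Each line gives the 150 bases before a transcript start, from RefSeq on build GRCm38.p6. Those of Egr2 (chr10:67537719-67537868) and Fos (chr12:85473740-85473889) lie on the plus strand. Those of Fosb (chr7:19310046-19310195), Junb (chr8:84978749-84978898) and Dusp1 (chr17:26508473-26508622) lie on the minus strand. Capitals mark TGACG on either strand, the core of a cAMP response element, its full form TGACGTCA in Dusp1, which contains TGACG on both strands, and in Egr2 also the CArG box, the SRF motif.
Egr2: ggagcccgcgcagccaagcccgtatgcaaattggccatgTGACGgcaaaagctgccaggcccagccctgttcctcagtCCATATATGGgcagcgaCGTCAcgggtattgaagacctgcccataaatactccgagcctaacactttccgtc
Fosb: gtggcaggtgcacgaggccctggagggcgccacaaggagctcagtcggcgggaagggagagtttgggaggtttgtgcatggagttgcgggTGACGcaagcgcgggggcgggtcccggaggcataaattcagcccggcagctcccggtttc
Junb: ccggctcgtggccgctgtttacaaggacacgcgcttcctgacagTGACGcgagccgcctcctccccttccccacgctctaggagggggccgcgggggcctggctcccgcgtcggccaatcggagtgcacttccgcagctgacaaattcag
Fos: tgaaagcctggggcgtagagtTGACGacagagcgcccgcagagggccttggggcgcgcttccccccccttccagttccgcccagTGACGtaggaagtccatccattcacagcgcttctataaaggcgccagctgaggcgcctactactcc
Dusp1: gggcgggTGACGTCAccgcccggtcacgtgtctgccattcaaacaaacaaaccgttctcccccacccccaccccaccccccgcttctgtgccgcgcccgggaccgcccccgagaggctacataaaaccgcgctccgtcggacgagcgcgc

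In the RefSeq windows, which run from 250 bases before to 50 bases after a start, 7 of the 9 genes were matched, and Egr1 and Ier2 have no entry. TGACG stood on either strand in 6 of the 7, all but Jun, compared with 23.0% of 27025 genes. In Egr2 it began 111 and 55 bases before the start, in Fosb 60, in Junb 106, and in Fos 129 and 66. The full TGACGTCA was found in Dusp1 alone, 143 bases before the start, and in 2.03% of all genes. The CArG box, which is CC, a run of A or T and GG, was found in 4 of the 5 Egr2 windows. Within these windows no other matched gene had it, and 1.81% of all genes did. Bases further upstream were not searched, so a motif missing here may lie outside the window. The AP-1 motif TGANTCA was in 0 of the 7 and in 8.97% of all genes. The letters were chosen after these windows had been read, so the counts are a description, and a match is not a bound site.

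Values below are the authors' RMA intensities, taken to log2 without a pseudocount. Differences are shRNA minus empty vector on that scale, ± the standard error of a limma fit across all genes, where both shRNAs together have n = 4 against 2 controls and a single shRNA has n = 2 against 2. Counts and differences use each gene's brightest probe set unless another is named. Array medians lay between 100.2 and 104.9. Rad21 itself stood at 11.14 and 10.49 on the empty-vector arrays, 9.63 and 9.14 with shRNA1, and 9.50 and 9.11 with shRNA2. That is 36.0% of the empty-vector level over both shRNAs, a difference of -1.47 ± 0.26 (limma adjusted p = 0.0558, and 0.0166 when blocked on replicate number). It was -1.15 (0.0651) without empty-vector replicate 1 and -1.80 (0.00721) without replicate 2. Of the other Rad21 probe sets, one differed by -1.78 ± 0.40 without overlap, and the dimmest by -0.43 ± 0.29, with shRNA and control arrays overlapping. Empty-vector replicate 1 stood apart: there the 3′ signal of Gapdh exceeded its 5′ signal by 2.42 on the log2 scale, against -0.078 to 0.017 on the other 5 arrays, and for Actb 2.55 against 0.22 to 0.33. For both shRNAs together, values without it are given where they change a call or move a stated difference by over 1.5 times. This leaves out genes named only for their likeness in profile. Without empty-vector replicate 2, empty-vector replicate 1 is the only control. A fit without either control array takes its spread between replicates from the shRNA arrays alone, which lay closer together. Over all genes, the root mean square deviation from the group mean was 0.32 with empty vector, 0.15 with shRNA1 and 0.14 with shRNA2. More genes passed in such fits than with all arrays. A call kept or gained there, here or below, is therefore no sign of robustness.

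Over both shRNAs, 2 of the 9 genes fell, Egr2 and Junb, and none rose. Of all genes 1.4% fell, 0.734% rose and 2.13% changed in either direction at the same threshold. At an unadjusted p under 0.05, 5 of the 9 and 16.7% of all genes differed. All 9 differences were below 0, as were 53.6% of those of all genes, and their median was -0.83, against -0.023 over all genes. The 9 share the same 6 arrays, so their common direction is not 9 separate observations. They were also chosen with earlier results of these data known, so their excess over all genes is not independent support. In 4 of the 9, Egr1, Egr2, Fosb and Junb, all 4 shRNA arrays lay below both empty-vector arrays, as they did in 13.6% of all genes. The main fit used a spread shared by the 3 groups, although the control arrays lay further apart than the shRNA arrays. Its p-values against empty vector may therefore be too small. Array weights, which count noisier arrays less, were 0.33 for each control array, 1.56 for shRNA1 and 1.93 for shRNA2. With them 0 of the 9 passed, and 51 of all genes against 264 in the main fit. In bulk RNA, fewer cells that carry a transcript and less of it per cell cannot be told apart.

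**Figure D1:**
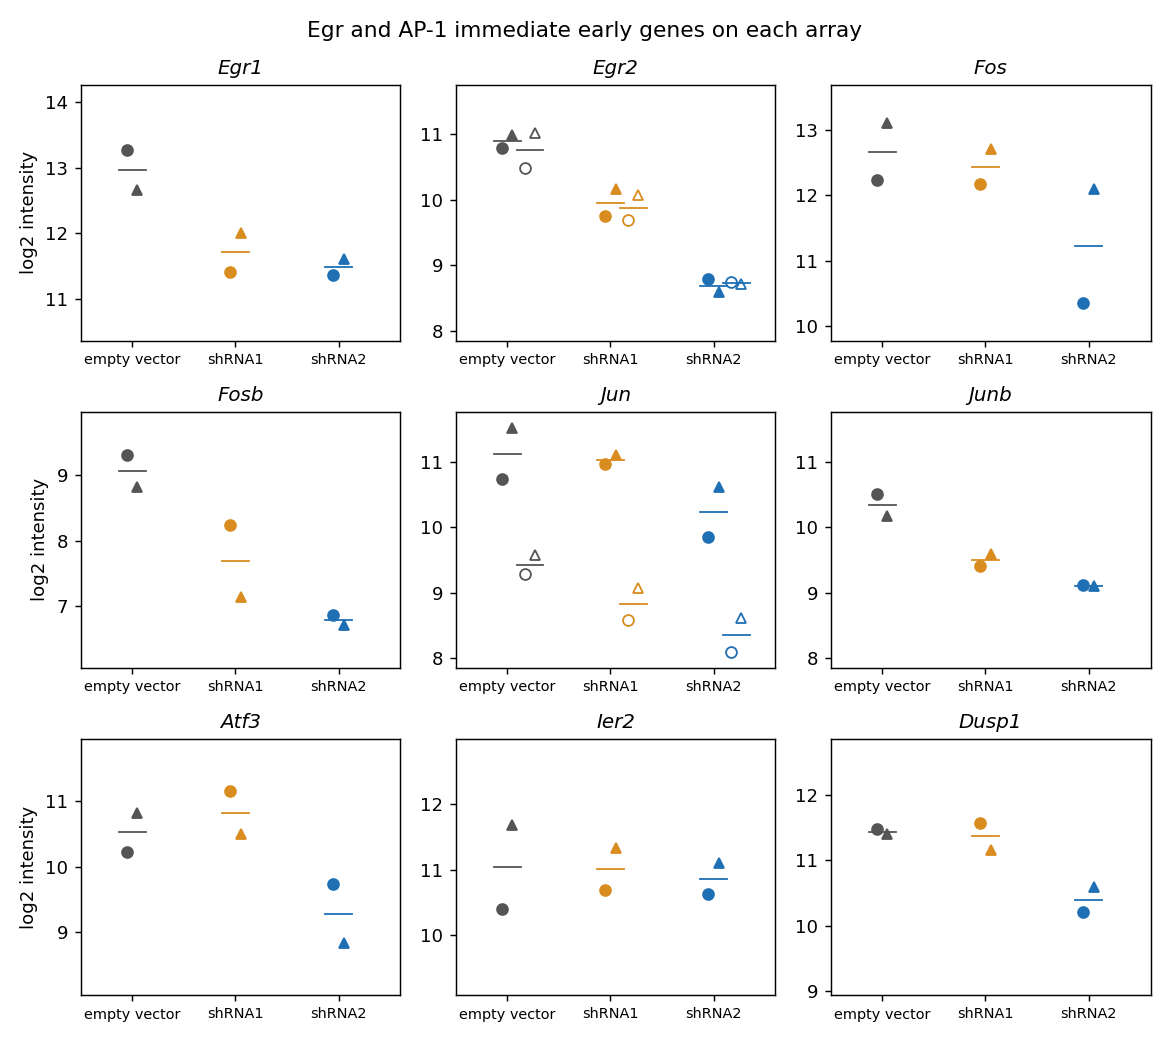
Log2 intensity of each gene on each of the 6 arrays, with circles for replicate 1, triangles for replicate 2 and a bar at the group mean. Filled symbols are the brighter probe set and open symbols the other probe set of Egr2 and Jun, and every panel spans the same number of log2 units. Egr1, Egr2, Fosb and Junb lie lower on all 4 shRNA arrays than on both controls, while the Ier2 groups overlap.

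Egr2, also known as Krox20, gave the clearest separation. Its brighter probe set stood at 10.79 and 10.99 with empty vector, 9.76 and 10.16 with shRNA1, and 8.78 and 8.59 with shRNA2. The groups did not overlap and formed 3 steps. Over both shRNAs Egr2 fell by 1.57 ± 0.17 (adjusted p = 0.0183), to 33.8% of the empty-vector level. The other probe set gave 10.49 and 11.01, then 9.69 and 10.06, then 8.75 and 8.72, with a difference of -1.45 ± 0.21. Without empty-vector replicate 1 the brighter probe set differed by -1.67. The call of Egr2 was lost without shRNA1 replicate 1, shRNA2 replicate 1 or shRNA2 replicate 2. It was also lost with array weights (0.0904), and over all alternatives the adjusted p ran from 0.0067 to 0.103.

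Egr1, the founding EGR gene, stood at 13.27 and 12.67 with empty vector, 11.42 and 12.01 with shRNA1, and 11.36 and 11.61 with shRNA2. Every shRNA array was lower than either control, and the shRNA groups overlapped. The difference of -1.37 ± 0.25, or 38.7% of control, missed the threshold (limma adjusted p = 0.0610). Empty-vector replicate 1 was the highest of the 6 arrays, and without it the difference was -1.07 (0.0797). Without empty-vector replicate 2 it was -1.67 and passed (0.00921).

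Among the FOS genes, Fosb moved furthest. It stood at 9.31 and 8.81 with empty vector, 8.24 and 7.14 with shRNA1, and 6.87 and 6.71 with shRNA2. The groups did not overlap, although the shRNA1 arrays lay further apart than those of the other groups. The difference of -1.82 ± 0.33, or 28.3% of control, had a limma adjusted p of 0.0593, which became 0.0282 under the block and passed, as it did without empty-vector replicate 2 (0.0181). Without empty-vector replicate 1 it was -1.57 (0.0959).

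Fos, the partner of JUN in the classical AP-1 dimer, stood at 12.23 and 13.10 with empty vector, 12.17 and 12.70 with shRNA1, and 10.36 and 12.10 with shRNA2. The empty-vector and shRNA1 arrays overlapped, and the shRNA2 arrays lay 1.74 apart. This was the widest gap between replicates of a group among the 9 genes. Its difference over both shRNAs was -0.83 ± 0.52 (adjusted p = 0.497), -1.27 without empty-vector replicate 1 and -0.40 without replicate 2.

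Junb, an AP-1 subunit that activates transcription less strongly than JUN, fell. It stood at 10.51 and 10.18 with empty vector, 9.41 and 9.59 with shRNA1, and 9.12 and 9.11 with shRNA2. The groups lay in 3 separate steps, with replicates at most 0.33 apart. The fall was 1.04 ± 0.15, to 48.7% of control (adjusted p = 0.0395; 0.0514 with the replicate block). Without empty-vector replicate 1 the difference was -0.87. The call was lost without any 1 of the 4 shRNA arrays. It was also lost with every probe set as its own row (0.0575), without the dimmer 50% of genes (0.0523), with quantile normalization (0.0529) and with array weights (0.134).

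Jun, the founding member of AP-1, differed less. Its brighter probe set stood at 10.73 and 11.51 with empty vector, 10.96 and 11.10 with shRNA1, and 9.85 and 10.62 with shRNA2. The shRNA1 arrays lay between the controls, and both shRNA2 arrays lay below them. The difference was -0.49 ± 0.30 (adjusted p = 0.490), and it depended on the control, at -0.88 without empty-vector replicate 1 and -0.10 without replicate 2. The dimmer probe set disagreed in part: at 9.29 and 9.57, 8.59 and 9.07, and 8.10 and 8.61, all 4 of its shRNA arrays were below both controls, with a difference of -0.84 ± 0.23.

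Atf3, a stress-induced factor that dimerises with JUN proteins, stood at 10.23 and 10.83 with empty vector, 11.15 and 10.50 with shRNA1, and 9.73 and 8.84 with shRNA2. The shRNA1 arrays overlapped the controls and the shRNA2 arrays lay below them. Over both shRNAs it differed by -0.47 ± 0.34 (limma adjusted p = 0.555). That difference was -0.77 without empty-vector replicate 1 and -0.18 without replicate 2.

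Dusp1 encodes a phosphatase that switches MAP kinases off. It stood at 11.47 and 11.39 with empty vector, 11.57 and 11.15 with shRNA1, and 10.21 and 10.58 with shRNA2. Its shRNA1 arrays lay on either side of the controls, while both shRNA2 arrays were lower. The difference was -0.55 ± 0.19 (adjusted p = 0.228).

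Ier2, a nuclear protein gene induced by serum, had the smallest difference among the 9. It stood at 10.40 and 11.69 with empty vector, 10.70 and 11.33 with shRNA1, and 10.63 and 11.10 with shRNA2, so all 3 groups overlapped. Over both shRNAs it differed by -0.10 ± 0.40 (adjusted p = 0.934), by 0.54 without control replicate 2 and by -0.75 without replicate 1.

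The shRNAs were also set against empty vector separately, in comparisons that share the 2 control arrays. With shRNA1 none of the 9 passed by limma, against 0.234% of all genes (0.137% lower and 0.0968% higher), and 4 had an unadjusted p under 0.05, against 9.3%. With shRNA2, 3 fell and none rose, against 2.83% of all genes called, 1.95% lower and 0.88% higher, and 7 had an unadjusted p under 0.05, against 17.8%. Differences were below 0 in 8 of 9 with shRNA1 (55.2% of all genes) and in 9 of 9 with shRNA2 (51.6%). The median difference was -0.23 for shRNA1 and -1.24 for shRNA2. Both shRNA2 arrays lay below both controls in 8 of 9 genes, all but Ier2, and in 22.6% of all genes. Both shRNA1 arrays did so in 4 of 9, Egr1, Egr2, Fosb and Junb, and in 19.5% of all genes.

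**Figure D2:**
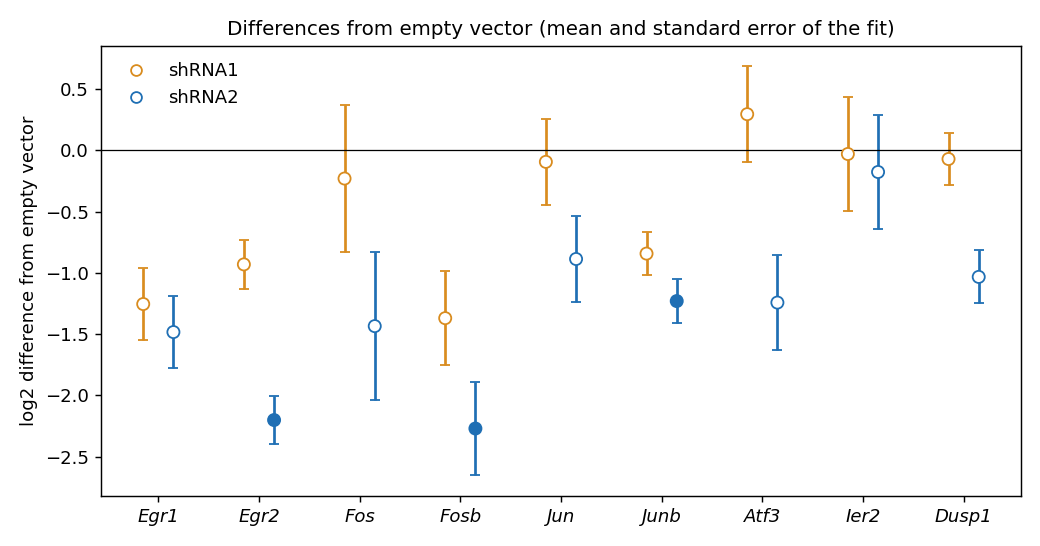
Log2 difference from empty vector for each gene with shRNA1 and with shRNA2, with the standard error of the limma fit as bars and n = 2 and 2 arrays. Filled points passed an adjusted p of 0.05 over all genes: Egr2, Fosb and Junb with shRNA2, and no gene with shRNA1.

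With shRNA2, Egr2 fell by 2.20 ± 0.20 (adjusted p = 0.0112), to 21.7% of control, and Fosb fell by 2.27 ± 0.38 (0.0427), to 20.7%. Junb fell by 1.23 ± 0.18 (limma adjusted p = 0.0296), to 42.6%. Without either shRNA2 array none of the 3 passed (adjusted p from 0.120 to 0.270). Fosb also missed without empty-vector replicate 1 (0.0504) and Junb without either shRNA1 array (0.0860). The next were Egr1 at -1.48 ± 0.29 (adjusted p = 0.0644) and Dusp1 at -1.03 ± 0.22 (0.0744), both past the threshold without empty-vector replicate 2 (0.0103 and 0.0331).

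With shRNA1 the same 4 genes that did not overlap the controls had differences of -1.37 ± 0.38 for Fosb (adjusted p = 0.325), -1.25 ± 0.29 for Egr1 (0.226), -0.93 ± 0.20 for Egr2 (0.192) and -0.84 ± 0.18 for Junb (0.189). Fos (-0.23 ± 0.60), Jun (-0.094 ± 0.35), Dusp1 (-0.071 ± 0.22), Ier2 (-0.030 ± 0.46) and Atf3 (0.30 ± 0.39) lay within about their standard error of 0. On the dimmer Jun probe set the difference was -0.60 ± 0.26, with both shRNA1 arrays below both controls. Without empty-vector replicate 2, Egr1, Egr2 and Junb passed (limma adjusted p = 0.0183, 0.0487 and 0.0119).

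The direct comparison of the shRNAs tests whether the effects differ. By limma no gene of the 9 and none of the 12393 passed, and at an unadjusted p under 0.05 there were 3 of 9 and 4.89% of all genes. All 9 genes were higher with shRNA1, and in 7 of them, all but Egr1 and Ier2, both shRNA2 arrays lay below both shRNA1 arrays, as in 17.7% of all genes. The median was 0.90, against -0.021 over all genes. The smallest p-values belonged to Egr2 (1.27 ± 0.20, adjusted p = 0.288; 0.0256 with array weights, range 0.0256 to 1.00), Dusp1 (0.96 ± 0.22, 0.501) and Atf3 (1.54 ± 0.39, 0.646). Rad21 differed by 0.077 ± 0.30 between the shRNAs. The group means ran from empty vector over shRNA1 to shRNA2 from high to low in 8 of 9 genes, all but Atf3, and in 25.1% of all genes, but neighbours in that order overlapped for Fos, Jun, Ier2 and Dusp1 (empty vector and shRNA1) and for Egr1 and Ier2 (shRNA1 and shRNA2).

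Among themselves the genes followed different patterns over the 6 arrays. The root mean square difference between mean-centred log2 values was smallest for Egr1 and Junb (0.23), then for Jun and Dusp1 (0.33) and for Fos and Jun (0.38), and largest for Fosb and Ier2 (1.14). Fos, Jun and Ier2 were higher on replicate 2 than on replicate 1 in each of the 3 groups, as were 18.6% of all genes. For Ier2 that gap was 1.29 with empty vector, 0.63 with shRNA1 and 0.47 with shRNA2, wider than any difference between its group means. The genes outside the 9 whose profile was closest to Egr2 were Sh3bgrl2 (root mean square difference 0.099), Lrpap1, a chaperone of LDL receptor family proteins (0.14), and Adam8, a membrane protease (0.15). For Egr1 they were the channel gene Trpc1 (0.11), which was dim at 4.54 to 6.13 over the 6 arrays, Otub2 (0.13) and Ttc28 (0.14). For Jun they were B4galt6 (0.14), Rhbdd1 (0.16) and the receptor kinase Grk5 (0.16), and for Fos they were Rgs1, itself an early response gene (0.30), Mmp12, macrophage elastase (0.31), and Ccdc71l (0.32). Likeness over 6 arrays is a description, without a test.

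Other genes of the pathway were read from lists, for both shRNAs against empty vector. The lists were chosen with earlier results of these data known. Their counts, and those of the marker lists, are to be read beside the 1.4% of all genes that fell, the 0.734% that rose and the 16.7% at an unadjusted p under 0.05. In the list of other immediate early and early response genes, limma called 0 of 27, although 13 were lower at an unadjusted p under 0.05, and the median was -0.40, compared with -0.023 over all genes. The smallest p-values were those of Sgk1, a kinase induced by serum and glucocorticoids (-1.23 ± 0.22, adjusted p = 0.0593), and Zfp36, whose product destabilises mRNAs (-1.02 ± 0.19, 0.0613). Sgk1 differed by -1.53 without empty-vector replicate 1 and by -0.93 without replicate 2, and Zfp36 by -1.19 without replicate 2. With shRNA2, 3 of the 27 fell, against 1.95% of all genes: Sgk1 by 1.93 ± 0.26 (adjusted p = 0.0262), Zfp36 by 1.45 ± 0.22 (0.0336) and Rhob, a small GTPase named after its value was seen, which fell by 1.22 ± 0.17 (0.0265). These calls were lost without either shRNA2 array and without either shRNA1 array (adjusted p from 0.0672 to 0.263). The list's median was -0.048 with shRNA1 and -0.57 with shRNA2.

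**Figure D3:**
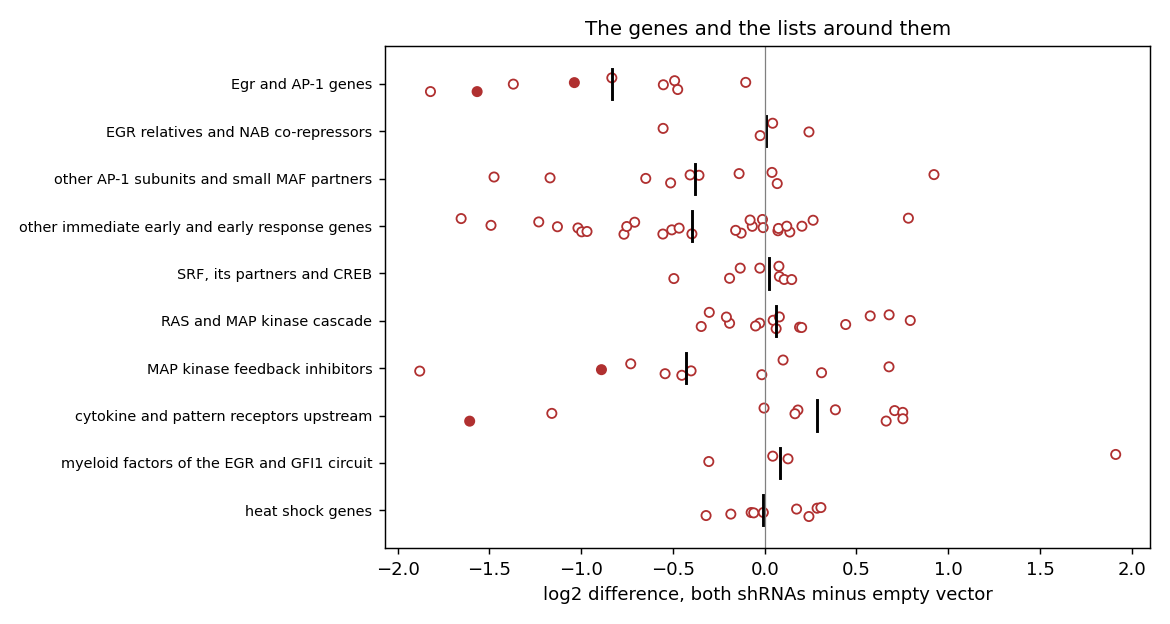
Log2 difference between both shRNAs and empty vector for each measured gene of the 9 and of the lists around them, with a bar at each list's median. Filled points passed an adjusted p of 0.05 over all genes. The Egr and AP-1 genes lie below 0, with a median of -0.83, and the SRF, MAP kinase cascade and heat shock lists centre near 0.

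Of the MAP kinase feedback inhibitors, 1 of 10 fell, Dusp6, a phosphatase of ERK, by 0.89 ± 0.14 (adjusted p = 0.0412). Blocking on replicate number gave 0.0544, and leaving out any 1 shRNA array 0.139 to 0.193. It also fell with shRNA2 (1.07 ± 0.16, 0.0311), a call lost without any 1 shRNA array (0.0927 to 0.262), and the list's median was -0.43. Among other AP-1 subunits and small MAF partners 0 of 10 passed by limma and 2 had an unadjusted p under 0.05, Batf3 (-1.47 ± 0.34, adjusted p = 0.108; 0.0219 with the replicate block) and Jund (-1.17 ± 0.26, 0.101), with a median of -0.38. Jund differed by -0.71 without empty-vector replicate 1 and by -1.63 without replicate 2, and Batf3 by -1.93 without replicate 1. Of the EGR relatives and NAB co-repressors 0 of 4 passed, none at an unadjusted p under 0.05. Nab2 differed by -0.55 ± 0.29 (limma adjusted p = 0.415) and Nab1 by 0.24 ± 0.15 (0.485). Over all alternatives the Nab1 difference ran from 0.14, without empty-vector replicate 2, to 0.74.

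Among upstream lists, differences lay below 0 in 4 of 8 SRF and CREB genes, 6 of 15 cascade genes and 3 of 10 receptors. Of all genes, 53.6% lay below 0. Of the 23 cascade genes listed, 15 were measured, and kinase activity was not. Of the list of SRF, its partners and CREB 0 of 8 passed by limma, 1 at an unadjusted p under 0.05, with a median of 0.026. Its smallest p-values were those of the SRF partners Elk4 (-0.49 ± 0.18, adjusted p = 0.244) and Elk1 (-0.19 ± 0.16, 0.616). Without empty-vector replicate 1 they were -0.25 and -0.13, and without replicate 2 Elk4 was -0.74. Over all alternatives the Elk4 difference ran from -0.74 to -0.11. In the RAS and MAP kinase cascade 0 of 15 passed by limma, 4 at an unadjusted p under 0.05, with a median of 0.063, and the stress kinase Mapk14, or p38 alpha, differed by 0.68 ± 0.19 (adjusted p = 0.155) and its substrate Mapkapk2 by 0.79 ± 0.24 (0.193). Mapk14 was 0.40 without empty-vector replicate 1, and without replicate 2 it was 0.95 and passed (0.00706). Of 10 upstream receptors 1 fell, Kit, the receptor of stem cell factor (-1.61 ± 0.25, adjusted p = 0.0412; 0.0564 to 0.182 without any 1 shRNA array), and the list's median was 0.28.

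Of the myeloid factors of the EGR and GFI1 circuit 0 of 4 passed by limma, 1 at an unadjusted p under 0.05. Gfi1, a repressor needed for neutrophil development, differed by 1.91 ± 0.46 (adjusted p = 0.116). Without empty-vector replicate 1, its lowest array, the difference was 1.21 (0.161), and without replicate 2 it was 2.61 and passed (0.00895). It stood at 6.05 and 7.45 with empty vector, 8.39 and 8.00 with shRNA1, and 8.63 and 9.64 with shRNA2. The shRNA and empty-vector arrays did not overlap. Cebpa, a myeloid transcription factor, differed by -0.30 ± 0.26 (0.629), by -0.74 without empty-vector replicate 1 and by 0.13 without replicate 2. Of the heat shock genes, which also respond to stress and handling, 0 of 9 passed by limma and none had an unadjusted p under 0.05. Their median was -0.0072, with Hspd1 at 0.31 ± 0.15 (adjusted p = 0.380) and Hspe1 at -0.32 ± 0.20 (0.498). Without empty-vector replicate 1 they were 0.46 and -0.00022, and without replicate 2 they were 0.15 and -0.64, where Hspe1 passed (0.0188).

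Markers of several cell types moved with the groups, and their part in the results above was not tested. The summed intensity of the 9 genes was 25606 and 29663 on the empty-vector arrays, 18151 and 21321 with shRNA1, and 9600 and 14308 with shRNA2. Such a sum is weighted towards the brightest genes, here Fos and Egr1, with log2 means of 12.11 and 12.05 over the 6 arrays. It does not show that each gene stepped down. Macrophage markers summed to 29338 and 56273, then 49261 and 52987, then 34680 and 34885, and 1 of 12 fell. Empty-vector replicate 1, the array with the Gapdh gap, had the lowest macrophage sum. Of the 9 genes, Egr2, Fos, Jun, Atf3 and Ier2 were lower there than on the other control, and Egr1, Fosb, Junb and Dusp1 were higher. Neutrophil markers rose in 6 of 13, with sums of 29724 to 42928 with empty vector, 70364 to 87357 with shRNA1 and 90663 to 92894 with shRNA2.

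**Figure D4:**
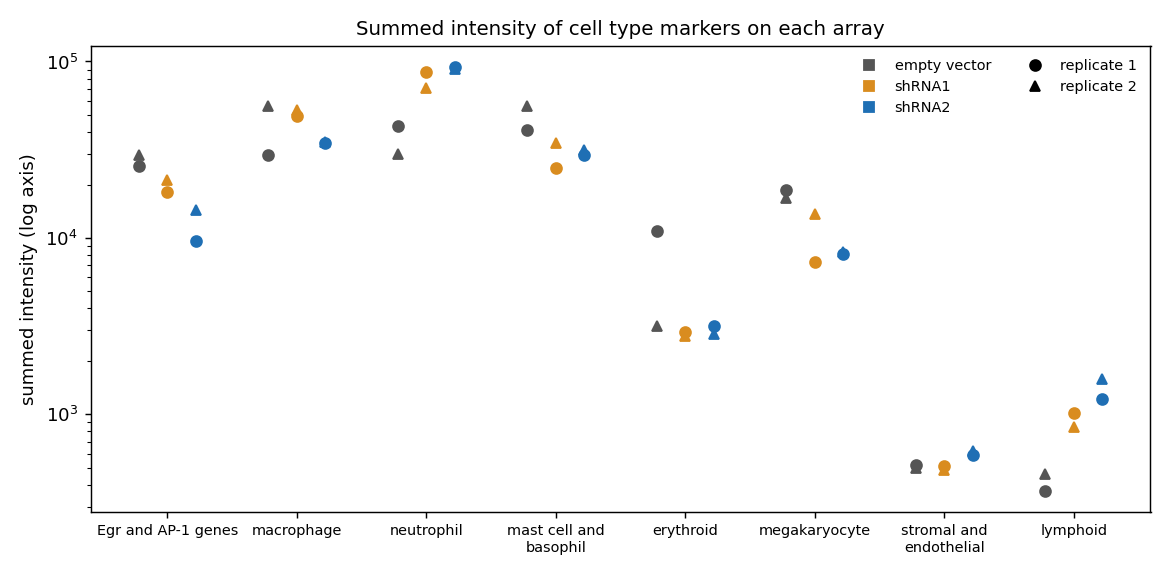
Summed linear intensity of the 9 genes and of 7 lists of cell type markers on each array, on a log axis, with colours for groups and symbols for replicates. The sum of the 9 genes, weighted towards the brightest, Fos and Egr1, steps down from empty vector over shRNA1 to shRNA2. The macrophage sums are 29338 and 56273 with empty vector, 49261 and 52987 with shRNA1, and 34680 and 34885 with shRNA2.

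Mast cell and basophil markers fell in 2 of 12, and their sums were 40934 to 55763 with empty vector, 24918 to 34405 with shRNA1 and 29420 to 31413 with shRNA2. Megakaryocyte markers fell in 1 of 6, with sums of 16870 to 18601, 7317 to 13732 and 8096 to 8333 in the same order. Erythroid markers had no call by limma among 9, with 4 at an unadjusted p under 0.05, and their sum was 10951 on one control array, empty-vector replicate 1, and 2788 to 3162 elsewhere. Lymphoid markers rose in 1 of 6 and summed to 370 to 461 with empty vector, 851 to 1024 with shRNA1 and 1229 to 1594 with shRNA2. Their median difference was 0.12, and 2 of the 6 lay below 0, so the list did not rise as a whole. Stromal and endothelial markers had no call by limma among 7, with 1 at an unadjusted p under 0.05, and summed to 484 to 622 over all arrays. No marker was listed at 0, since the lowest value in the table was 4.96.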

How the data were processed

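The authors deposited 1 intensity per probe set and array, made with RMA per the submitters' processing notes; its version and the array's build were not stated in what was used here. Values ran from 4.96 to 20615, so they are linear, and log2 was taken. RMA aligns the arrays' distributions, which hides changes in total RNA. Of 22690 probe sets, 20380 with 1 gene in the platform annotation were used, without the Affymetrix controls, and each gene was represented by its brightest probe set. Limma 3.58.1 (R 4.3.3) fitted the 3 groups together, with 3 residual and 2.91 prior degrees of freedom. Tests were two-sided, with Benjamini-Hochberg adjustment over 12393 genes and a threshold of 0.05. The fit was also tried on simulated data with equal spread in all groups. The spread here was unequal, so that trial does not vouch for these p-values. The number of arrays limits the precision. Across genes, deviations of same-numbered arrays correlated at 0.20, 0.15 and 0.58 between groups, so the replicate number was also used as a block. The members, the 9 other pathway lists and the 7 marker lists were chosen with earlier results of these data known. Named genes were the members, up to 4 called genes per list or otherwise the 2 with the smallest p, and the 3 genes closest in profile to Egr1, Egr2, Fos and Jun. Plots were drawn with matplotlib 3.10.9 and tables joined with pandas 2.3.3 in Python 3.11.15.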

Additional observations from a re-analysis of the deposited data

How the results depend on the processing

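Of the 9 genes' differences, none changed sign under the alternatives that kept all arrays of the comparison. Over both shRNAs the count of members called was 2, and 1 with every probe set as its own row, with the dimmer 50% of genes left out and with quantile normalization, and 0 with array weights. Junb was the gene lost in the first 3 of these. The count was 3 with median centring, which added Fosb (0.0493), and 3 with an intensity trend, which added Egr1 (0.0490). The count over all genes was 264, and 140 with every probe set, 113 with the dimmer 50% left out and 51 with array weights. For shRNA1 the counts over all genes were 29 in the main fit, 8 with every probe set, 3 with the dimmer 50% left out, 56 with median centring, 59 with an intensity trend, 8 with array weights and 0 with only the arrays of the groups compared. For shRNA2, array weights left 1 member, and the counts over all genes were 351 in the main fit, 221 with every probe set, 180 with the dimmer 50% left out, 160 with array weights and 120 with only the groups compared. Between the shRNAs, array weights called 1 member and 98 genes, and the fit of only those groups 44 genes.

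With 1 array left out, where the lone array of a group is assumed to vary like the others, the members called ranged from 0 to 4 over both shRNAs, 0 to 3 for shRNA1, 0 to 5 for shRNA2 and 0 to 0 between them. All genes called ranged from 3 to 3121, 0 to 2534, 0 to 2941 and 0 to 44. Over both shRNAs the members called were 2 and 4 without empty-vector replicates 1 and 2, 0 and 1 without those of shRNA1, and 0 and 0 without those of shRNA2. The 3 members called with shRNA1 and the 5 with shRNA2 appeared without empty-vector replicate 2, where the control was the array with the Gapdh gap of 2.42. Signs changed for Ier2 over both shRNAs (-0.75 to 0.54), with shRNA1 (-0.67 to 0.62), with shRNA2 (-0.82 to 0.47) and between them (-0.17 to 0.46). With shRNA1 they changed for Fos (-0.67 to 0.21), Jun (-0.48 to 0.30), Atf3 (-0.030 to 0.62) and Dusp1 (-0.28 to 0.14), between the shRNAs for Egr1 (-0.068 to 0.53), and over both for Cebpa (-0.74 to 0.13). The replicate block ended the calls of Junb (adjusted p = 0.0514) and Dusp6 (0.0544) and of Otub2 (0.0526), and added Fosb (0.0282), Rad21 (0.0166), Batf3 (0.0219) and Ccdc71l (0.0424). Causes were not tested.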
